A study of Mus musculus with 6 samples.

Results

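Small nucleolar RNAs (snoRNAs) and small Cajal body RNAs were examined in 6 RNA-sequencing libraries of mouse embryonic stem (ES) cells. The members were every row of the count table whose symbol begins with Snord, Snora or Scarna and a number, which gave 119 of 23420 gene symbols: 74 box C/D RNAs (Snord), 36 box H/ACA RNAs (Snora) and 9 Cajal body RNAs (Scarna). The tested cells carried a lentivirus for KBP(KK/RR), which the labels describe as a stable mutant (replicates 4, 5 and 6), and the cells they were set against carried a lentivirus for wild-type KBP (replicates 1, 2 and 3). Both groups were stably transduced and kept self-renewing, and neither holds cells without virus. KBP is the kinesin family binding protein, and the question put to the RNAs here is whether their levels depend on which form of KBP the cells were given. The labels name no ES cell line or clone and do not say whether replicates were separate cultures, so p-values measure the spread between these libraries, which may be technical.

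snoRNAs are short nuclear RNAs that guide chemical modification of other RNAs by base pairing. Box C/D RNAs carry fibrillarin and direct methylation of ribose in ribosomal RNA, box H/ACA RNAs carry dyskerin and direct the conversion of uridine to pseudouridine, and Cajal body RNAs direct both changes in spliceosomal RNAs. In mammals most are cut from introns of host genes, many of which encode ribosomal proteins or are long non-coding RNAs whose main stable products are the snoRNAs. Per the labels, total RNA was taken with an RNeasy kit, ribosomal RNA was depleted and libraries were made with ScriptSeq; spin columns of this kind are known to retain very short RNAs poorly, so the counts cannot be read as the abundance of mature snoRNAs, and reads from unspliced host transcripts cannot be told apart from those of the snoRNAs.

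Sequences are shown for some of the most abundant box C/D and box H/ACA RNAs and for most of those with the smallest p, so that the guide RNAs can be recognised. Those of Snord35b and Snora68, also with a small p, and of the Cajal body RNAs are not shown. They are GENCODE M21 transcripts on GRCm38, written from the first base of the RNA to the last. In box C/D RNAs, capitals mark the first TGATG within the first 20 bases (part of box C) and the last CTGA within the last 16 bases (box D), on the RNA's strand only.
Snord22 (chr19:8725866-8725991, plus strand): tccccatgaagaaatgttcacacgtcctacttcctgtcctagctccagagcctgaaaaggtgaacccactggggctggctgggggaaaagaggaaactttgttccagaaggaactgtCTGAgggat
Snord96a (chr11:48802032-48802112, plus strand): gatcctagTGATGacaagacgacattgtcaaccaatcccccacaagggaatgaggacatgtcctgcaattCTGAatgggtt
Snord12 (chr2:167065276-167065365, plus strand): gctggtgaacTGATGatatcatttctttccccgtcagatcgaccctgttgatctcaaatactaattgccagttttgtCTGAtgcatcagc
Snord47 (chr1:161038082-161038158, plus strand): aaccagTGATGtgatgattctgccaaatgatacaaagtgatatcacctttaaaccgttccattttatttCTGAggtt
Snord34 (chr7:45126601-45126670, minus strand): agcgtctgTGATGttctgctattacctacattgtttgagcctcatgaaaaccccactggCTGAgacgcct
Snord16a (chr9:64175423-64175521, plus strand): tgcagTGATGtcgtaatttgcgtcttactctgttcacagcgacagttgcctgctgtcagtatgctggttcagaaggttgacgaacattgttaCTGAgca

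In box H/ACA RNAs, capitals mark the ANANNA nearest the midpoint (box H, searched from 35% to 65% of the length) and the last ACA within the last 8 bases, again on the RNA's strand only.
Snora61 (chr4:132310240-132310369, plus strand): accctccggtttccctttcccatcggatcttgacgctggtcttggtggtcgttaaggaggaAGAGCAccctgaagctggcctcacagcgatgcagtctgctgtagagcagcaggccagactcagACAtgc
Snora65 (chr2:32963291-32963420, plus strand): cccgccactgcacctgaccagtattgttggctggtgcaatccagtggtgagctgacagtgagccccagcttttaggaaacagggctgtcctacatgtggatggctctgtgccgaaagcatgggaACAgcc
Snora78 (chr17:24719676-24719803, minus strand): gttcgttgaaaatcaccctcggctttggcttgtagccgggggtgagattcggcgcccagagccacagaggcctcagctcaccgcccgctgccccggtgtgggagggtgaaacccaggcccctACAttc
Both motifs of their class were found in 59 of 73 box C/D sequences and in 31 of 36 box H/ACA sequences. Snord22 has no TGATG and Snora65 and Snora78 no ANANNA in these windows, which says only that these letters are not there. The ANANNA and ACA searches did not overlap, and in Snord47 the marked TGATG is followed directly by a further TGATG.

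No member was called different between the groups. Of the 119, 17 had no read in any library, 41 had too few reads to be tested and 61 were tested (38 box C/D, 23 box H/ACA and none of the Cajal body RNAs). With edgeR's quasi-likelihood test and Benjamini-Hochberg adjustment over all 14340 tested genes, 0 members passed an adjusted p under 0.05 in either direction, against 3.12% of all tested genes (1.05% higher and 2.07% lower). At an unadjusted p under 0.05, 7 members were lower and 0 higher, against 10.3% of all tested genes lower and 8.32% higher. The 7 were Snord12, Snord16a, Snord34, Snord35b, Snord47, Snora68 and Snora78. DESeq2 gave none of the 61 an adjusted p and put 0 of them under an unadjusted 0.05, and limma-voom called 0 with 6 lower at an unadjusted 0.05. The signs were uneven: 51 of 61 members (83.6%) had a negative log2 fold change, KBP(KK/RR) minus wild-type KBP, against 50.8% of all tested genes. The members' median log2 fold change was -0.15 and that of all tested genes -0.00. After a trend on transcript length and GC content was removed, the members' median was -0.07. With that trend removed, 68.9% of the members were negative, against 49.4% of all tested genes.

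**Figure D1:**
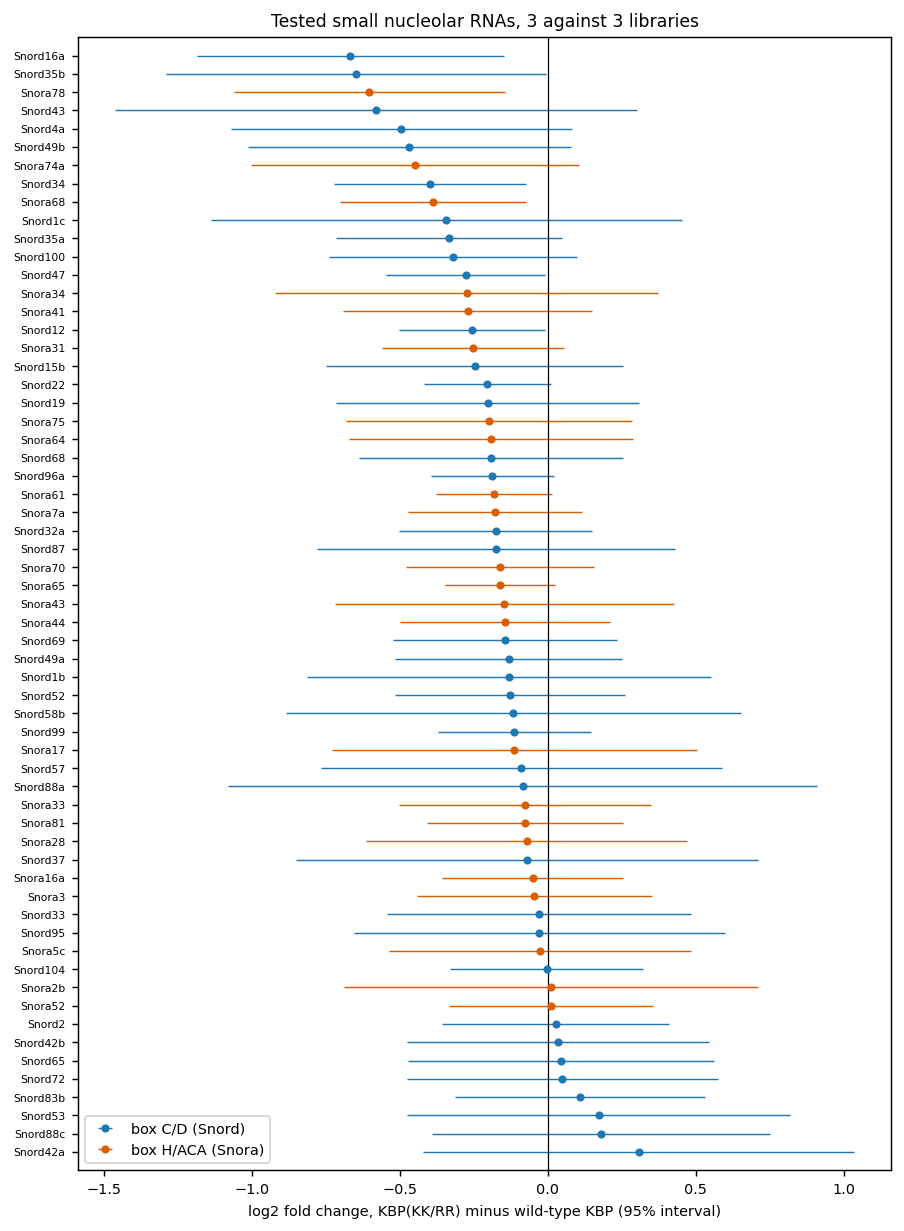
Log2 fold change (x axis, KBP(KK/RR) minus wild-type KBP) with its 95% interval for each of the 61 tested members (rows), box C/D in blue and box H/ACA in orange. Of the points, 51 lie left of 0, and most intervals cross 0.

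The intervals set what these libraries could show. The half-width of the 95% interval of the log2 fold change had a median of 0.48 and ran from 0.18 to 0.996, and for 9 members the interval reached below -1. Of these, Snord16a, Snord35b and Snora78 had intervals wholly below 0, before adjustment over all genes, and for the others the interval held both a halving and no difference. Tested members had 51 to 1340 reads over all 6 libraries, with a median of 226. In all, members took 20342 of 166263011 counts.

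The plot of all genes by level places the members among transcripts of low count, where fold changes spread most.

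**Figure D2:**
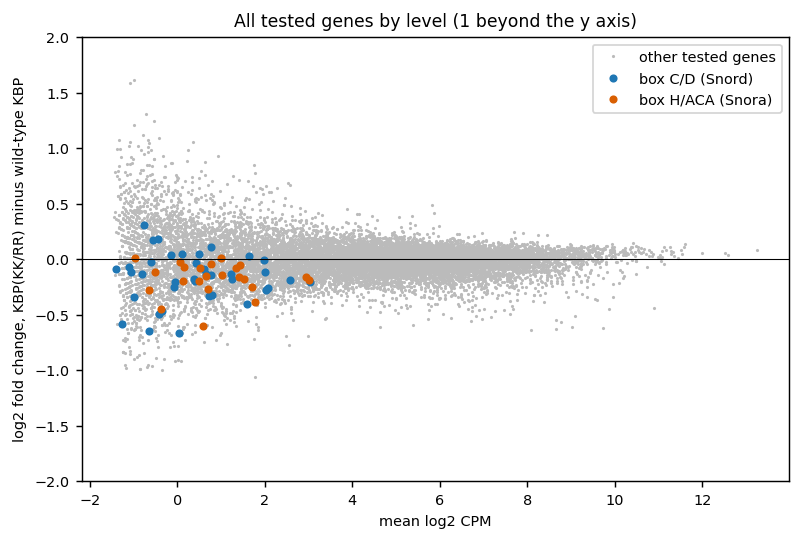
Log2 fold change (y axis, KBP(KK/RR) minus wild-type KBP) against mean log2 CPM (x axis) for all 14340 tested genes in grey, with 38 box C/D RNAs in blue and 23 box H/ACA RNAs in orange; 1 gene lies beyond the axis limit of 2. The members lie at the low end of the level scale, and 51 of 61 lie below 0.

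Levels are given as CPM, counts scaled to a common library size with TMM factors. Among box C/D RNAs, Snord22 had the highest CPM. It is needed for maturation of the small-subunit ribosomal RNA in Xenopus. It measured 6.96, 7.35 and 8.14 CPM in KBP(KK/RR) replicates 4, 5 and 6, against 9.72, 8.91 and 7.13 CPM in wild-type KBP replicates 1, 2 and 3. The groups overlapped through wild-type KBP replicate 3, and the log2 fold change came to -0.20 (SE 0.10; adjusted p = 0.298, edgeR). Snord96a, from an intron of Rack1, a ribosome-bound scaffold protein, measured 5.71, 5.47 and 5.32 CPM in KBP(KK/RR) cells, against 6.47, 6.51 and 5.75 CPM in wild-type KBP cells. Its groups did not overlap, and its log2 fold change of -0.19 (SE 0.10) was not called (edgeR adjusted p = 0.326).

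Snord12 is cut from the long non-coding RNA Zfas1 (listed in the files as 1500012F01Rik). It measured 3.39, 3.76 and 4.07 CPM in KBP(KK/RR) cells, against 4.36, 4.67 and 4.34 CPM in wild-type KBP cells, without overlap. The log2 fold change came to -0.26 (SE 0.12; adjusted p = 0.246, edgeR). Snord47, from the long non-coding RNA Gas5, measured 3.76, 3.51 and 3.53 CPM in KBP(KK/RR) cells, against 4.29, 5.05 and 3.63 CPM in wild-type KBP cells. Here too wild-type KBP replicate 3 lay within the range of the KBP(KK/RR) libraries, and the log2 fold change came to -0.28 (SE 0.13; adjusted p = 0.252, edgeR). Snord99, from Snhg12, measured 3.80, 3.84 and 3.67 CPM in KBP(KK/RR) cells, against 3.67, 4.64 and 3.79 CPM in wild-type KBP cells; only replicate 2 of the wild-type KBP libraries stood above the others, and the log2 fold change came to -0.11 (SE 0.13; adjusted p = 0.668, edgeR).

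Further box C/D RNAs are named for a small p. Snord34 lies with Snord32a, Snord33 and Snord35a in introns of the ribosomal protein gene Rpl13a, of which Snord32a, Snord33 and Snord35a are known from hamster cells for a role in lipotoxic stress. It measured 2.29, 2.78 and 2.63 CPM in KBP(KK/RR) cells, against 3.29, 4.05 and 2.59 CPM in wild-type KBP cells, with a log2 fold change of -0.40 (SE 0.16, edgeR adjusted p = 0.174). Snord16a, from the ribosomal protein gene Rpl4, measured 0.874, 0.816 and 0.538 CPM in KBP(KK/RR) cells, against 1.19, 1.37 and 0.917 CPM in wild-type KBP cells. All its KBP(KK/RR) CPM values, from 16 to 26 reads, were below the wild-type KBP CPM values, from 22 to 44 reads, and the log2 fold change of -0.67 (SE 0.25, edgeR adjusted p = 0.151) was the lowest of all members. Snord35b had 9 to 17 reads per KBP(KK/RR) library and 14 to 24 reads per wild-type KBP library, and a log2 fold change of -0.65 (SE 0.31, edgeR adjusted p = 0.264). An annotated exon lies antisense to Snord35b, and the strand setting of the counting is not given in the sources used here, so reads of this pair may be mixed.

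Box H/ACA RNAs had the same lean. Snora61, from Snhg12, measured 6.55, 7.88 and 7.98 CPM in KBP(KK/RR) cells, against 8.69, 8.63 and 8.01 CPM in wild-type KBP cells. The groups came close to each other without overlapping. A log2 fold change of -0.18 (SE 0.09) resulted, with an edgeR adjusted p of 0.305. Snora65, from Rpl12, measured 6.99, 7.35 and 7.34 CPM in KBP(KK/RR) cells, against 8.54, 7.94 and 7.76 CPM in wild-type KBP cells, again without overlap. The log2 fold change came to -0.16 (SE 0.09; adjusted p = 0.341, edgeR). Snora65 has 3 near-identical copies in the annotation and Snora68 has 1, and how reads were shared among copies is not given in the sources used here, so both values are uncertain.

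Snora68 measured 3.19, 2.82 and 2.66 CPM in KBP(KK/RR) cells, against 4.52, 3.93 and 2.84 CPM in wild-type KBP cells. Replicates 1 and 2 of the wild-type KBP libraries were high and replicate 3 was not, and the log2 fold change came to -0.39 (SE 0.15; adjusted p = 0.170, edgeR). Snora78, from the long non-coding RNA Snhg9, measured 0.773, 1.14 and 1.48 CPM in KBP(KK/RR) cells, against 1.53, 2.03 and 1.54 CPM in wild-type KBP cells. Its groups did not overlap and its log2 fold change of -0.60 (SE 0.22, edgeR adjusted p = 0.142) had the smallest adjusted p of all members. Snora78 and Snhg9 lie within the span of Rps2, at 2102 CPM over all libraries, on the opposite strand. No annotated exon lies antisense to Snora78, but with the strand setting not given, reads of unspliced Rps2 may be mixed in. Snora31, from Tpt1, and Snora7a, from Rpl32, had log2 fold changes of -0.25 (SE 0.15) and -0.18 (SE 0.14), with overlapping groups and edgeR adjusted p of 0.378 and 0.530.

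**Figure D3:**
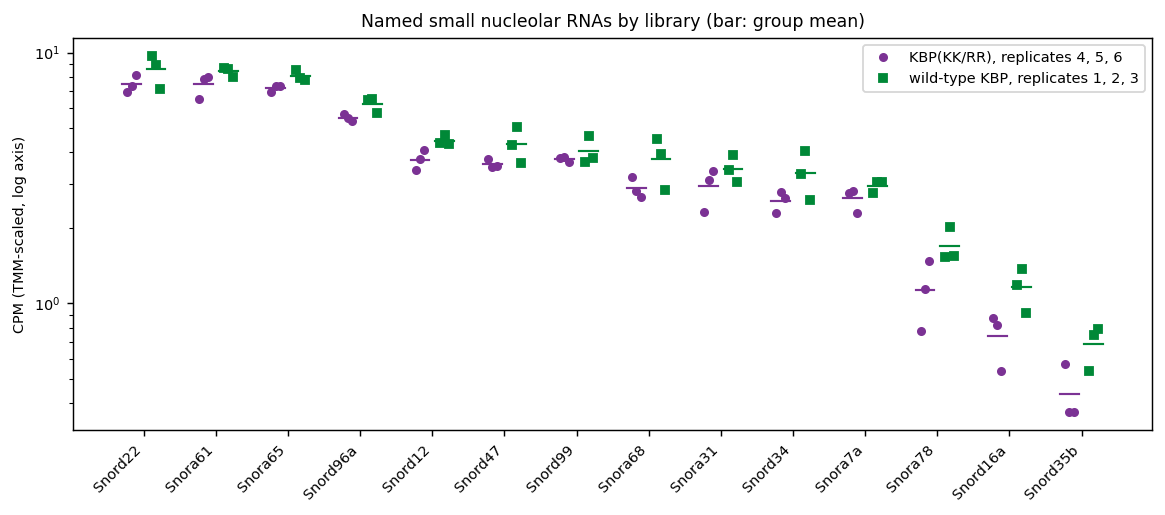
CPM (y axis, log scale) of 14 tested members, those most abundant or with the smallest p in the box C/D and box H/ACA classes (x axis, by mean level), with KBP(KK/RR) replicates 4, 5 and 6 as purple circles and wild-type KBP replicates 1, 2 and 3 as green squares; short bars are group means. For each of these 14 the KBP(KK/RR) mean lies below the wild-type KBP mean. In Snord22, Snord34, Snord47, Snord99, Snora31 and Snora68 the third green square falls to the level of the purple circles.

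Over all tested members, 10 of 61 (16.4%) had every KBP(KK/RR) library below every wild-type KBP library, against 10.5% of all tested genes, and 0 had every KBP(KK/RR) library above, against 11.8%. The 10 members with a positive log2 fold change were 8 box C/D RNAs and 2 box H/ACA RNAs, up to 0.31 for Snord42a (SE 0.35, edgeR adjusted p = 0.684), from Rpl23a. The class medians were -0.14 for box C/D and -0.16 for box H/ACA.

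Cajal body RNAs were too sparse for a test. The 9 had 25, 18 and 25 reads in KBP(KK/RR) replicates 4, 5 and 6, against 27, 29 and 22 reads in wild-type KBP replicates 1, 2 and 3, or 0.805 ± 0.0612 CPM against 0.951 ± 0.0714 CPM (SD, n = 3 each). Scarna13, from the long non-coding RNA Snhg10, had 45 reads in all, with 6 to 9 per library in either group. Scarna9, from Cep295, had 7, 2 and 8 reads in KBP(KK/RR) cells, against 3, 5 and 10 reads in wild-type KBP cells, and Scarna6, from Atg16l1, had 1, 6 and 3 reads in KBP(KK/RR) cells, against 8, 8 and 1 reads in wild-type KBP cells. The groups overlapped for each of these 3. All 41 members with reads but too few to test held 450 reads in KBP(KK/RR) cells and 467 reads in wild-type KBP cells, with at most 54 for one of them, Snora23.

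Levels were compared between members per kilobase of annotated length. On RefSeq lengths, Snora61 stood at 128 CPM per kilobase, followed by Snord96a at 76.3, Snord99 at 69.7, Snora65 at 64.8 and Snord22 at 63.8. On GENCODE lengths Snord96a led at 72.5 CPM per kilobase, with Snord22 at 63.8 and Snora61 at 61.2, because Snora61 is 62 bases long in RefSeq and 130 in GENCODE. For 14 members the GENCODE length exceeded the RefSeq length by more than 1.5 times, so an order of levels rests on the annotation. Read length was not allowed for in either order. Median RefSeq length was 78 bases for tested and 87 bases for untested members.

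The summed levels show which libraries carried the lean. Box C/D RNAs summed to 65.6, 66.2 and 65.4 CPM in KBP(KK/RR) replicates 4, 5 and 6, against 77.7, 78.6 and 61.7 CPM in wild-type KBP replicates 1, 2 and 3. Box H/ACA RNAs summed to 47.3, 51.1 and 48.0 CPM in KBP(KK/RR) cells, against 57.5, 58.7 and 48.9 CPM in wild-type KBP cells. In both classes the 3 KBP(KK/RR) libraries and wild-type KBP replicate 3 lay close together and wild-type KBP replicates 1 and 2 lay above them. Means were 65.7 ± 0.422 against 72.7 ± 9.52 CPM for box C/D and 48.8 ± 1.98 against 55.0 ± 5.32 CPM for box H/ACA (SD, n = 3 each), so that the difference was smaller than the wild-type KBP SD for box C/D and little above it for box H/ACA. No test was run on these sums, since the members were chosen with earlier results known. The log2 ratio of the group means over all members was -0.16. It became -0.099 when wild-type KBP replicate 2 was left out and -0.25 when replicate 3 of that group was.

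Single members followed the same order of libraries. Of the 61 tested members, 29 had their highest CPM in wild-type KBP replicate 2 and 21 in replicate 1, while 21 had their lowest in wild-type KBP replicate 3. Over all tested genes the highest library was wild-type KBP replicate 2 for 15.8% and replicate 1 for 12.8%, and the lowest was wild-type KBP replicate 3 for 20.8%. With all libraries, 7 of 61 members were lower at an unadjusted p under 0.05. The count was 4 of 65 when KBP(KK/RR) replicate 5 was omitted and 4 of 62 when wild-type KBP replicate 1 was. It was 0 of 60 without wild-type KBP replicate 2 and 13 of 63 without wild-type KBP replicate 3. Calls over all tested genes (edgeR adjusted p under 0.05) also moved, from 448 to 281, 415, 174 and 277 in the same order. The share of all tested genes at an unadjusted p under 0.05 in these settings is not given here.

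**Figure D4:**
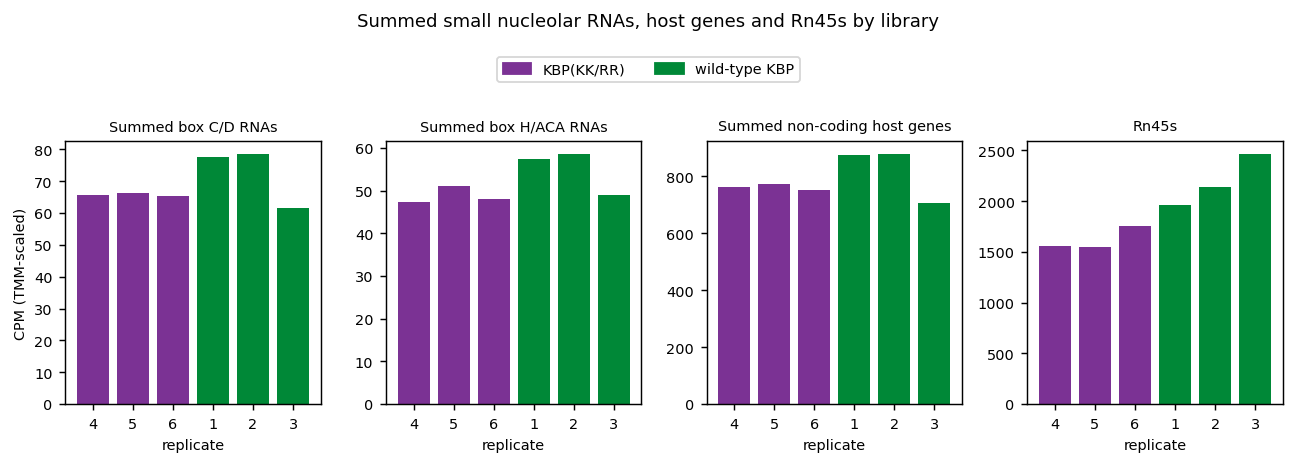
CPM (y axis, from 0) in each library (x axis, replicate number), with KBP(KK/RR) in purple and wild-type KBP in green. The panels are the summed box C/D RNAs, the summed box H/ACA RNAs, the summed non-coding host genes (with the protein-coding Taf1d) and Rn45s. In the first 3 panels wild-type KBP replicates 1 and 2 are the highest bars, and for Rn45s wild-type KBP replicate 3 is.

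Host genes were found by coordinates, as the annotated gene on the same strand that contains the member. A tested host was found for 57 tested members, in 39 genes, and 37 of these members overlap an exon of at least 1 annotated host transcript. The hosts' median log2 fold change was 0.02, with 14 of 39 negative, whereas that of the 57 members was -0.16. In 43 of 57 pairs the member's log2 fold change was lower than its host's, and the correlation of both across pairs was r = 0.08 (Pearson; rho = -0.06, Spearman), given as a description because members of a host and all pairs share libraries. The difference between a member and its host was not tested.

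**Figure D5:**
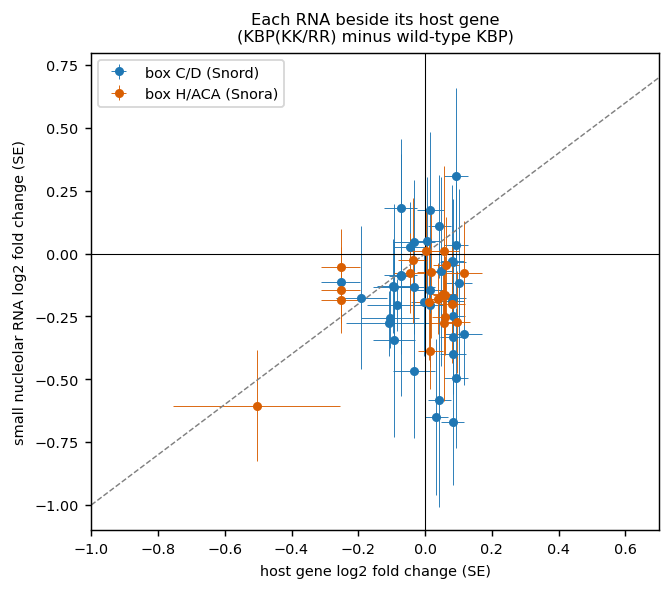
Log2 fold change of each member (y axis) against that of its host gene (x axis), both KBP(KK/RR) minus wild-type KBP with SE bars, for 57 pairs in 39 hosts; the dashed line marks equal change. Hosts cluster near 0 on the x axis while members spread mainly below 0, and 43 of 57 points lie below the dashed line.

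Among protein-coding hosts the 17 ribosomal protein genes held 24 tested members, of which 19 had a negative log2 fold change, with a median of -0.18. Of the 33 tested members in all other hosts, 28 had a negative log2 fold change, with a median of -0.13. Rpl13a itself measured 1047 ± 25.4 CPM in KBP(KK/RR) cells and 988 ± 44.7 CPM in wild-type KBP cells (SD, n = 3 each; log2 fold change 0.08, SE 0.04, edgeR adjusted p = 0.247), whereas its 4 snoRNAs stood at -0.18 (Snord32a), -0.03 (Snord33), -0.40 (Snord34) and -0.33 (Snord35a). Rpl4, host of Snord16a, had a log2 fold change of 0.08 (SE 0.03). In Rpl23a the 3 tested members differed in sign, with Snord42a at 0.31, Snord42b at 0.03 and Snord4a at -0.50. Exons of Tlcd1 lie antisense to Snord42a and Snord4a.

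The list of 23 non-coding host genes also holds Taf1d, which is protein-coding, and genes that were not found to host a tested member. Among these are Mirg, Meg3, Rian and Snhg8, and also Snhg3, Snhg5 and Snhg11. Of the 23, 22 were in the files, 6 of them under an older symbol, and all 22 were tested and 1 was called. Snhg12, a long non-coding RNA that holds Snora16a, Snora44, Snora61 and Snord99, measured 30.5, 31.4 and 30.8 CPM in KBP(KK/RR) cells, against 37.3, 39.2 and 33.6 CPM in wild-type KBP cells. It fell in KBP(KK/RR) cells with a log2 fold change of -0.25 (SE 0.06, edgeR adjusted p = 0.0183), a call that did not survive leaving out replicate 2 of the wild-type KBP group (edgeR adjusted p = 0.167) or replicate 6 of the mutant group (edgeR adjusted p = 0.0972). Its 4 snoRNAs had log2 fold changes of -0.05, -0.15, -0.18 and -0.11, none called. Gas5 measured 196, 200.4 and 194 CPM in KBP(KK/RR) cells, against 232, 231 and 173 CPM in wild-type KBP cells, and was not called (log2 fold change -0.11, SE 0.13, edgeR adjusted p = 0.719); without wild-type KBP replicate 3 it was called lower (adjusted p = 0.00315). Snhg1, host of Snord22, stood at -0.09 (SE 0.09), Zfas1 at -0.11 (SE 0.09) and Snhg9 at -0.50 (SE 0.25). Snhg17 (9430008C03Rik in the files) stood at -0.16 (SE 0.06, edgeR adjusted p = 0.150) and Snhg6 at -0.19 (SE 0.08, edgeR adjusted p = 0.176). Snhg17 was called lower when wild-type KBP replicate 3 was omitted (adjusted p = 0.0333), and Snhg6 was called lower after a correction for length and GC content (-0.27, adjusted p = 0.0152). Of the 22, 18 had a negative log2 fold change, and the median of the 22 was -0.09. The 4 positive ones were Mirg, Rian, Meg3 and Snhg8. Mirg stood at 0.87 (SE 0.36, edgeR adjusted p = 0.196), from 5 to 19 reads per library. Rian stood at 0.21 (SE 0.09, edgeR adjusted p = 0.232), Meg3 at 0.21 (SE 0.12) and Snhg8 at 0.01 (SE 0.08). The 22 summed to 765, 773 and 751 CPM in KBP(KK/RR) cells, against 876, 879 and 707 CPM in wild-type KBP cells. Wild-type KBP replicates 1 and 2 were highest, as in the snoRNA sums.

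Genes of the proteins that bind and mature snoRNAs showed no call. Of 4 box C/D core protein genes, 4 box H/ACA core protein genes, 12 assembly factors, 8 Cajal body and cap factors and 16 processing and decay factors, all tested, 0 rose and 0 fell (edgeR; 1, 1, 2, 0 and 2 of them at an unadjusted p under 0.05). Fbl, the methyltransferase fibrillarin, measured 363 ± 15.1 CPM in KBP(KK/RR) cells and 339 ± 8.26 CPM in wild-type KBP cells (SD, n = 3 each), a log2 fold change of 0.10 (SE 0.04, edgeR adjusted p = 0.186). Nop56, a core protein and itself the host of Snord57, stood at -0.07 (SE 0.04), and Nop58 at 0.06 (SE 0.04). Dkc1, the pseudouridine synthase dyskerin, stood at 0.06 (SE 0.04), Nhp2 at 0.06 and Gar1 at 0.12 (SE 0.05, edgeR adjusted p = 0.228). The assembly factor genes Znhit6 and Znhit3 had log2 fold changes of 0.15 and 0.14, with edgeR adjusted p of 0.131 and 0.198. Phax, an adaptor of capped small RNA precursors, stood at 0.10 and Ddx20, a partner of SMN, at 0.09. Parn, which trims the ends of H/ACA RNAs, stood at 0.11 (edgeR adjusted p = 0.236) and the exonuclease gene Xrn1 at -0.19 (edgeR adjusted p = 0.259). Xrn1 was called lower without a filter on low counts (adjusted p = 0.0280) and when KBP(KK/RR) replicate 4 was omitted (adjusted p = 0.0109). Medians of the 5 lists lay between 0.03 and 0.06 and that of all tested genes at -0.00.

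Other structural RNAs were few in the table. Of 29 listed, 14 were in the files and 5 were tested, all with a negative log2 fold change and none called. Rn45s, the ribosomal RNA precursor that box C/D and box H/ACA RNAs modify, measured 1557, 1550.5 and 1751 CPM in KBP(KK/RR) cells, against 1966, 2145 and 2467 CPM in wild-type KBP cells. Its groups did not overlap, and its log2 fold change of -0.44 (SE 0.10) was not called by edgeR (adjusted p = 0.123) but was by DESeq2 (adjusted p = 0.00843). It was also called by edgeR without a filter on low counts (adjusted p = 0.0378) and when wild-type KBP replicate 1 (adjusted p = 0.00346) or 3 (adjusted p = 0.0207) was omitted. Ribosomal RNA was depleted before library construction, and whether depletion differed between libraries was not tested. Wild-type KBP replicate 3, lowest in the box C/D sum, was the highest in Rn45s. Rpph1, the RNA of RNase P, stood at -0.06 (SE 0.14), Rmrp, the RNA of RNase MRP, at -0.29 (SE 0.30) and Terc, the telomerase RNA with a box H/ACA end, at -0.03 (SE 0.41), the signs of Rpph1 and Terc changing with the processing. Rnu73b, by its symbol a further box C/D RNA that the member rule does not reach, stood at -0.30 (SE 0.38).

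The libraries themselves were of like depth, with 24131743 to 32160411 counts each. The gene for KBP (2510003E04Rik in the files) was higher in KBP(KK/RR) cells, at 56.6 ± 2.88 CPM, than in wild-type KBP cells, at 48.3 ± 1.30 CPM (SD, n = 3 each; log2 fold change 0.23, edgeR adjusted p = 0.0133), a call lost when KBP(KK/RR) replicate 5 (adjusted p = 0.0735) or wild-type KBP replicate 2 (adjusted p = 0.0908) was omitted. Reads of virus and endogenous gene were not separated here. All 7 ES cell markers were tested, at 317 to 1443 CPM, with 0 called. Fibroblast or feeder markers summed to 15.2 to 16.2 CPM in KBP(KK/RR) libraries and 15.3 to 17.1 CPM in wild-type KBP libraries, with 4 of 6 tested and 0 called. Primitive endoderm markers summed to 159 to 198 CPM in KBP(KK/RR) libraries and 210.2 to 267 CPM in wild-type KBP libraries, mostly Lama1 (log2 fold change -0.49, edgeR adjusted p = 0.169), with 5 of 6 tested and 0 called; their part in the snoRNA values was not tested. In bulk RNA, fewer cells of a type and less RNA per cell cannot be told apart.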

How the data were processed

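The authors deposited raw counts per gene symbol, whole numbers, for 6 libraries; the deposited table scaled per library was not used. bcl2fastq, TopHat, HTSeq and DESeq2 are named, with mm10 and GRCm38, in the submitters' processing notes; their versions, the annotation and the strand setting: not given in the sources used here. Counts were tested as deposited with edgeR 4.0.16 under R 4.3.3 (filterByExpr with a minimum count of 10, TMM factors, robust quasi-likelihood fit, group as the model's term), which left 14340 of 23420 symbols, and Benjamini-Hochberg adjustment covered all of them. Log2 fold changes set KBP(KK/RR) over wild-type KBP, and the SE is the absolute log2 fold change over the square root of F. Replicates differed beyond counting noise (chi-square per degree of freedom 2.70 to 7.17), so none was treated as a duplicate.

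Members matched RefSeq GRCm38.p6 by symbol for 118 of 119. Hosts, lengths and sequences came from GENCODE M21, and listed genes absent under their symbol were matched by the older symbol in RefSeq where only 1 was in the files. Copies were other annotated snoRNAs at 95% identity over 90% of the length. Named were the most abundant members per class, those with the smallest p, their hosts, and up to 3 genes per list with the smallest p. Members and lists were chosen with earlier results of these data known. Alternatives were DESeq2 1.42.0, limma-voom (limma 3.58.1), other scalings and filters, an adjusted p threshold of 0.1, removal of a trend on length and GC content (splines with 5 degrees of freedom) and each library left out. Some host genes are not reported here.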

Additional observations from a re-analysis of the deposited data

How the results depend on the processing

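No alternative called a member at an adjusted p under 0.05, in either direction (DESeq2 gave members no adjusted p). At a threshold of 0.1, 3 members passed without a filter on low counts (Snora68, Snora78 and Snord34) and 2 without wild-type KBP replicate 3 (Snora68 and Snord34), where the lowest adjusted p of any alternative, 0.0534, was found; 0 passed in the other settings. The count of members lower at an unadjusted p under 0.05, 7 of 61 with all libraries, was 4 of 61 with upper-quartile scaling. It was 2 of 61 after a correction for length and GC content and 0 of 61 in DESeq2. Among the 19 members at a mean log2 CPM from 1 upwards it was 4. With single libraries left out, 60 to 65 members were tested and the count ran from 0 to 13. The share of all tested genes at an unadjusted p under 0.05 in these alternatives is not given, so the counts cannot be set against it. The share of members with a negative log2 fold change was lowest at 66.7%, of 60 members without wild-type KBP replicate 2, against 49.9% of all tested genes. It was highest at 94.7%, of the 19 members at a mean log2 CPM from 1 upwards, against 50.4% of all genes tested there. The log2 ratios of the summed levels kept their sign under other scalings and with near-identical copies, the most abundant member or single libraries left out. The sums were not recomputed with the length and GC correction, limma-voom, DESeq2 or other filters. Of 207 values for the 14 tested members that are most abundant or have the smallest p in their class, 206 kept their sign (14 of the 207, from DESeq2, have no adjusted p). The exception was Snord99, at 0.016 without wild-type KBP replicate 2 and from -0.18 to 0.016 over single omissions. The 14 members were picked from the same data, so this count does not measure how stable the signs of all members are. Over all tested members, 51 of 61 were negative with all libraries. After the correction for length and GC content 42 of 61 were, and without wild-type KBP replicate 2, 40 of 60. After the correction for length and GC content the log2 fold change changed sign for Rpl32 (-0.013), Rpph1 (0.037), Terc (0.056) and Usp36 (0.024). Over single omissions Rnu73b ran from -0.69 to 0.038, Rpl32 from -0.0094 to 0.069 and Terc from -0.25 to 0.25. The cause was not tested. Counts of 51 to 1340 reads per tested member limit the precision. No paired analysis was possible because the labels give the groups different replicate numbers.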

Other observations

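Of the 17 members without a read in any library, some lie in imprinted or neuronal loci and most in genes that these cells express. Snord116, Snord116l1 and Snord116l2, of the imprinted Snhg14 region, and Snora35, inside the serotonin receptor gene Htr2c, had 0 reads of 166263011 counts, which allows up to 0.018 CPM each (3 counts, counting error only). The same 0 was found for Snord14c and Snord14d in Hspa8, a chaperone gene at 6162 CPM over all libraries, for Snord14a in Rps13 at 551 CPM, for Snord45c in Rabggtb at 122 CPM and for Snora24 in Snhg8 at 15.8 CPM, so that a 0 does not mark a silent host. Snord64, of the same imprinted locus as Snord116, had 38 reads over the 6 libraries. Snord14a, Snord14c, Snord14d, Snord45c and Snora24 each overlap an annotated exon of their host. How reads that fit both member and exon were counted is not given. Snord14c and Snord14d are near-identical to each other. Snord116l1 and Snord116l2 each have 69 near-identical copies in the annotation, and how reads that fit several copies were counted is not given. These members were singled out after their values were seen.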
